A study of Mus musculus with 4 samples.

Results

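Chemokines are small secreted proteins that direct the movement of blood cells, and the genes described here are those that encode them and their receptors. They were chosen by gene symbol: every gene whose symbol begins with Ccl, Cxcl, Ccr, Cxcr or Ackr followed by a number, without Ccr9, and with a probe set that the platform annotation gives to that gene alone. This gave 51 of the 19938 genes measured, namely 32 ligand genes (19 Ccl and 13 Cxcl) and 19 receptor genes (9 Ccr, 6 Cxcr and 4 Ackr). RNA came from sorted bone marrow cells of 8-week-old C57BL/6 (B6) mice and was hybridised to 4 Affymetrix arrays, 1 per sample. The cells, called hematopoietic stem cells (HSCs) in the labels, were Lin-c-Kit+Sca-1+, and multipotent progenitors share this phenotype. Mice were WT or labelled Hif1a-/-, with 2 arrays for each genotype, numbered 1 and 2 within each genotype as biological replicates. How Hif1a was deleted, in which cells, and whether animals were pooled the sources used here do not give, nor what arrays of the same number share. Beyond that label nothing says that they came from separate animals, so p-values measure only the spread between these arrays.

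Chemokine receptors are seven-helix receptors that signal through inhibitory G proteins, and one receptor often binds several ligands of the same class. The names follow the spacing of cysteines in the ligand, CC or CXC, while the atypical Ackr receptors bind ligands and remove them without G protein signalling. In the marrow, Cxcl12 made by stromal cells holds stem cells in their niche through Cxcr4, and other receptors guide mature monocytes, granulocytes and lymphocytes out of it. HIF-1, whose oxygen-regulated subunit is encoded by Hif1a, is known to raise Cxcr4 transcription in hypoxic cells. Values below are log2 signals, on which a difference of 1 is a doubling. A dim probe set is not evidence that a gene is expressed, and 38 of the 51 genes had a mean signal under the median of all genes (8.56). Levels are compared only between arrays, never between genes, because probe sets differ in brightness. RNA came from a sorted population in bulk, so fewer cells of a type and less RNA per cell cannot be told apart.

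Before the chemokine genes, a few facts of the arrays bear on every result. Medians over all probe sets lay between 8.19 and 8.35. The Hif1a signal was 10.37 and 10.99 in WT arrays 1 and 2, against 10.58 and 10.64 in arrays 1 and 2 labelled Hif1a-/-, so the groups overlapped. A probe set can lie outside a deleted part, so this signal does not check the genotype labels. Kit, the receptor used in the sort, read 12.57 and 11.51 in WT and 12.37 and 11.32 in Hif1a-/-, lower in the number 2 array of each genotype. Over all genes, limma called 759 higher and 585 lower in number 2, and 0 between the genotypes. Each result is therefore given by genotype and by number, and a number is used only as the label gives it.

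Cxcr4, the niche-retention receptor, did not pass the test between genotypes. Its log2 signal was 12.04 and 11.65 in WT arrays 1 and 2, against 12.00 and 11.40 in Hif1a-/- arrays 1 and 2. The ranges overlapped, with the 2 number 1 arrays high in both genotypes. Group means were 11.85 ± 0.28 (SD, n = 2) in WT and 11.70 ± 0.42 (SD, n = 2) in Hif1a-/-. The difference was −0.15 (SE 0.27, 95% interval −0.91 to 0.61, limma adjusted p = 0.9998), so the interval holds changes in either direction. Its sign turned without WT array 1 (0.05) and without Hif1a-/- array 2 (0.15). Between numbers Cxcr4 differed more: both number 2 arrays lay below both number 1 arrays, with number 2 minus number 1 at −0.40 in WT and −0.59 in Hif1a-/-. That difference of −0.50 (SE 0.13) had an adjusted p of 0.0944 in limma and did not pass. Its adjusted p in limma was 0.0429 under quantile normalization and 0.0477 under cyclic loess. It was 0.308 under median centring and 0.127 with genotype as a covariate, so the call depended on the setting. The difference was −0.62 without WT array 2 and −0.37 without Hif1a-/- array 2. It was −0.47 without WT array 1 and −0.52 without Hif1a-/- array 1. Each of these fits holds a lone array of a number, assumed to vary like the pair of the other number.

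The 250 bases before the Cxcr4 start are shown because HIF-1 binds a short core, ACGTG or GCGTG, called the hypoxia response element. Capitals mark each match on either strand. The window is RefSeq sequence of GRCm38.p6 (chr1:128592300-128592549, minus strand).
Cxcr4: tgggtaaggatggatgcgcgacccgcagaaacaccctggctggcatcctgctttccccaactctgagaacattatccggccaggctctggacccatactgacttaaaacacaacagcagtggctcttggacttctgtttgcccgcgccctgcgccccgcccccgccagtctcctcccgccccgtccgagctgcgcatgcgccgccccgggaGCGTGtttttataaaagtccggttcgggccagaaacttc
It held 1 core match, 39 to 35 bases before the start. Such a match is common: 12679 of 32851 RefSeq promoter windows of this length (38.6%) held at least 1. Of the 51 genes, 37 had a window in the table, with 39 windows in all, and 18 of these (46.2%) held a core. A match is a run of letters, not a binding site.

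The ligand of Cxcr4 and its scavenger were dim and did not pass in either comparison. Cxcl12 read 7.49 and 7.73 in WT arrays 1 and 2, against 7.55 and 7.68 in Hif1a-/- arrays 1 and 2. Its genotype difference was 0.00 (SE 0.14, 95% interval −0.39 to 0.40), so its sign has no meaning here. Ackr3, the atypical receptor that takes up Cxcl12, read 7.24 and 7.14 in WT and 7.09 and 7.48 in Hif1a-/-. The groups overlapped, and the difference of 0.09 (SE 0.18) combined −0.15 among the number 1 arrays with 0.34 among the number 2 arrays. The Ackr3 sign turned under quantile normalization (−0.02) and without Hif1a-/- array 2 (−0.10). Marker genes of stroma and endothelium were measured too: the mean of 15 such genes was 8.92 and 8.41 in WT arrays 1 and 2, against 8.78 and 8.31 in Hif1a-/- arrays 1 and 2. The list's median difference between numbers was −0.07. Of the 15, 4 passed as lower in number 2, namely Angpt1 (−2.73), Emcn (−2.81), Pdgfrb (−1.90) and Eng (−1.52). In the other direction 1 passed as higher, Cdh5 (0.71). Over all genes, 2.93% passed as lower and 3.81% as higher. Col1a1 (0.05), Col1a2 (−0.02), Kitl (0.07) and Pdgfra (−0.07) did not pass. Whether the signal of the listed genes came from stroma and endothelium or from the sorted cells themselves was not tested. Lepr, which marks the stromal cells known to make Cxcl12, read between 5.73 and 6.01 in the 4 arrays.

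Between the genotypes, the comparison that the series was designed for, none of the 51 genes passed. Of 19938 genes tested with limma, 0% were called higher and 0% lower after Benjamini-Hochberg adjustment, and 0 of 51 chemokine genes were. At an unadjusted p under 0.05 there were 2 of 51 (3.92%), Ccl20 and Cxcl2, against 0.727% of all genes. Mean differences ran from −0.57 (Ccl9) to 0.79 (Cxcl9), with a median of 0.10 against 0.00 for all genes. In the mean, 41 of 51 genes were higher in Hif1a-/-, but this count depended on scaling: it was 28 under quantile normalization, 27 under median centring and 31 under cyclic loess. The median of all genes, 0.00 as deposited, was −0.05, −0.08 and −0.02 under these scalings. The count was 27 without Hif1a-/- array 2, 30 without WT array 1, 41 without WT array 2 and 42 without Hif1a-/- array 1. Of all 19938 genes, 10095 were higher in the mean. Both Hif1a-/- arrays lay above both WT arrays for 14 genes (27.5%; 16.1% of all genes) and below them for 1 (1.96%; 8.33% of all genes). These counts fell to 6 under quantile normalization, 7 under median centring and 8 under cyclic loess on the higher side, beside 7.06%, 6.16% and 9.28% of all genes.

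**Figure D1:**
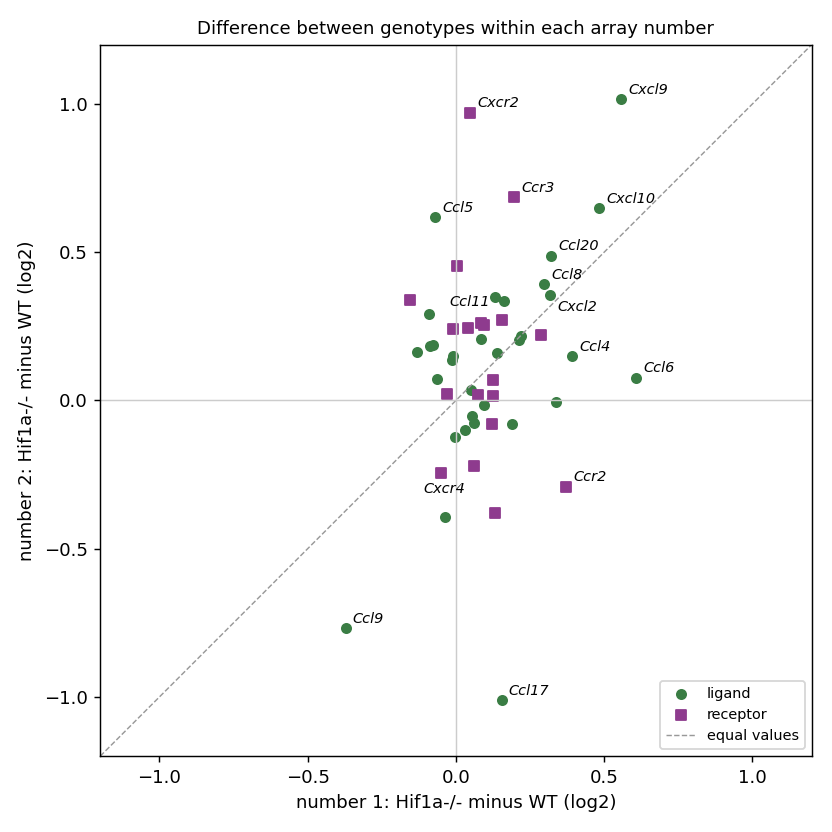
Each point is one gene (circles ligands, squares receptors), with its Hif1a-/- minus WT difference in log2 signal in the number 1 arrays (horizontal) and in the number 2 arrays (vertical); the dashed line marks equal values. Cxcl10 (0.48 and 0.65), Ccl20 (0.32 and 0.49) and Ccl9 (−0.37 and −0.77) lie on the same side of 0 in both, whereas Ccl17 (0.15 and −1.01) and Ccr2 (0.37 and −0.29) do not.

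Among the genes whose genotype groups did not overlap, Cxcl10 had the largest difference on the higher side. Cxcl10, an interferon-induced attractant of Cxcr3-bearing T and NK cells, read 8.47 and 8.89 in WT arrays 1 and 2, against 8.96 and 9.54 in Hif1a-/- arrays 1 and 2. The gap between the groups was small, since WT array 2 lay just under Hif1a-/- array 1. Its difference was 0.57 (SE 0.28, 95% interval −0.20 to 1.33), with 0.27 without Hif1a-/- array 2 and 0.86 without Hif1a-/- array 1. Cxcl9 and Cxcl11 bind the same receptor. Cxcl11 read 7.59 and 7.37 in WT and 7.73 and 7.72 in Hif1a-/-, a difference of 0.24 (SE 0.13) with no overlap. Cxcl9 had a mean difference of 0.79, but its SE was 1.06 and its groups overlapped. No member of this interferon-induced trio passed.

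Ccl20 and Cxcl2 had the smallest unadjusted p-values of the 51. Ccl20, the ligand of Ccr6, read 7.67 and 7.54 in WT arrays 1 and 2, against 8.00 and 8.02 in Hif1a-/- arrays 1 and 2. Arrays of one genotype lay close together for this gene, and its difference was 0.40 (SE 0.12, unadjusted p = 0.0257 in limma). Cxcl2, a neutrophil attractant that binds Cxcr2, read 6.46 and 6.44 in WT and 6.77 and 6.79 in Hif1a-/-. That spread was narrow as well, and the difference was 0.34 (SE 0.11, unadjusted p = 0.0334 in limma), or 0.22 under quantile normalization. Both probe sets were dim, and neither gene passed over all genes (adjusted p = 0.9998). Ccr6, the receptor of Ccl20, read 7.22 and 7.51 in WT and 7.50 and 7.73 in Hif1a-/-, so its groups overlapped.

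Cxcl2 and Cxcl10 are shown with the 250 bases before their starts, since both are textbook targets of NF-kB, which binds kB sites. Capitals mark matches to that core or to the kB site, searched on both strands. The kB pattern sought was GGG, A or G, any 2 bases, C or T at 2 places, then CC. The windows are RefSeq sequence of GRCm38.p6, at chr5:90903649-90903898, plus strand (Cxcl2) and chr5:92348890-92349139, minus strand (Cxcl10).
Cxcl2: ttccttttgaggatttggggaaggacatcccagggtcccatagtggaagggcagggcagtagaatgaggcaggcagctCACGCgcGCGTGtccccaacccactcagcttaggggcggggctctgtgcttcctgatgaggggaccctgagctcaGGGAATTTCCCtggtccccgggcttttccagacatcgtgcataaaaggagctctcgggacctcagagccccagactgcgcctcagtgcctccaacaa
Cxcl10: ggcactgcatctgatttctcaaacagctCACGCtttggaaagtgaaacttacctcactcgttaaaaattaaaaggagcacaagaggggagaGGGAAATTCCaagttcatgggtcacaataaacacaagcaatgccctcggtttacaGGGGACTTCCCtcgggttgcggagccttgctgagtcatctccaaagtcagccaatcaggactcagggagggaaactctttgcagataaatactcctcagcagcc
Cxcl2 held 2 core matches and Cxcl10 held 1. A match to the kB pattern was present in 11 of the 39 windows of chemokine genes (28.2%) and in 2382 of all 32851 windows (7.25%). As for the core, such a match is a run of letters, not a binding site. The neighbouring neutrophil attractant genes Cxcl1, Cxcl2 and Cxcl3 share one kB run of 11 bases, shown in capitals with its flanks in 30 bases each (GRCm38.p6; Cxcl1 chr5:90891165-90891194, plus strand; Cxcl2 chr5:90903793-90903822, plus strand; Cxcl3 chr5:90786019-90786048, plus strand).
Cxcl1: ctgtactccGGGAATTTCCCtggcccggag
Cxcl2: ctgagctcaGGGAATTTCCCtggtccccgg
Cxcl3: agctgcgggGGGAATTTCCCcagcccgggc
The shared run lay 71 to 61 bases before the start in Cxcl1, 97 to 87 in Cxcl2 and 73 to 63 in Cxcl3. Their genotype differences were −0.01 (SE 0.12) for Cxcl1, 0.34 for Cxcl2 and 0.22 (SE 0.16) for Cxcl3, and the differences between these genes were not tested.

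The other named ligands were Ccl8, Ccl4, Ccl11 and Ccl9. Ccl8, a monocyte attractant, read 6.56 and 6.82 in WT arrays 1 and 2, against 6.86 and 7.22 in Hif1a-/- arrays 1 and 2, a difference of 0.35 (SE 0.19). Ccl4, also known as macrophage inflammatory protein 1 beta, read 8.13 and 8.04 in WT and 8.52 and 8.19 in Hif1a-/-, a difference of 0.27 (SE 0.16). Ccl11, an eosinophil attractant, read 8.18 and 8.17 in WT and 8.34 and 8.51 in Hif1a-/-, a difference of 0.25 (SE 0.12). In each of these both Hif1a-/- arrays lay above both WT arrays, and none passed. Ccl9, a CC chemokine of myeloid cells, was the only gene with both Hif1a-/- arrays below both WT arrays: 10.81 and 11.34 in WT against 10.44 and 10.57 in Hif1a-/-. Its difference was −0.57 (SE 0.22, 95% interval −1.18 to 0.04, unadjusted p = 0.0611 in limma). Over the alternatives it ran from −0.83 without WT array 1 to −0.30 without WT array 2. These 6 higher genes and Ccl9 did not turn sign in any of the alternatives in which they were tested.

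Among receptors, 5 of 19 had both Hif1a-/- arrays above both WT arrays (16.1% of all genes) and 0 had both below (8.33% of all genes), none of them past the test. These 5 are among the 14 genes whose number fell to between 6 and 8 under the other scalings. They were Ackr2, Ccr1l1, Ccr4, Cxcr1 and Cxcr5, with differences between 0.05 (Ccr4) and 0.23 (Ccr1l1). Cxcr5, the B-cell follicle receptor, read 6.78 and 6.67 in WT arrays 1 and 2, against 6.94 in both Hif1a-/- arrays. Its ligand Cxcl13 read 6.83 and 6.84 in WT and 7.04 in both Hif1a-/- arrays, a difference of 0.21 (SE 0.11). Both genes were thus slightly higher in Hif1a-/- in each number, without passing. Of 13 B-cell markers, 0 passed between genotypes in limma (8 at an unadjusted p under 0.05, beside 0.727% of all genes). Both Hif1a-/- arrays lay above both WT arrays for 8 of them and below for 2, beside 16.1% and 8.33% of all genes. The mean log2 signal of that list was 9.75 and 9.70 in WT and 10.43 and 10.08 in Hif1a-/-, and its part in the chemokine values was not tested.

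A much larger split ran between the array numbers, in both genotypes. With limma, 11 of 51 genes (21.6%; 3.81% of all genes) were higher in number 2 after adjustment, and 0 of 51 were lower (2.93% of all genes). Under median centring the calls over all genes became 512 higher and 155 lower, and 8 chemokine genes were higher and 0 lower. The 11 were 6 receptors (Cxcr3, Ccr2, Ccr1, Cxcr2, Cxcr6 and Ccr7) and 5 ligands (Ccl6, Cxcl16, Cxcl9, Ccl5 and Ccl22). Their differences ran from 0.95 to 2.74, that is from 1.93-fold to 6.69-fold, and adjusted p-values from 0.00172 to 0.0379. All 11 were higher in number 2 within WT (0.86 to 2.96) and within Hif1a-/- (0.82 to 2.69). The tested difference is the mean of both, so this is not separate support. With 1 array per genotype and number, a difference between these ranges cannot be tested. The other 40 genes ran from −0.56 to 1.25, with a median of −0.0043. Both number 2 arrays lay above both number 1 arrays for 22 of 51 genes (43.1%, beside 20.4% of all genes). They lay below them for 7 (13.7%, beside 27.2% of all genes).

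**Figure D2:**
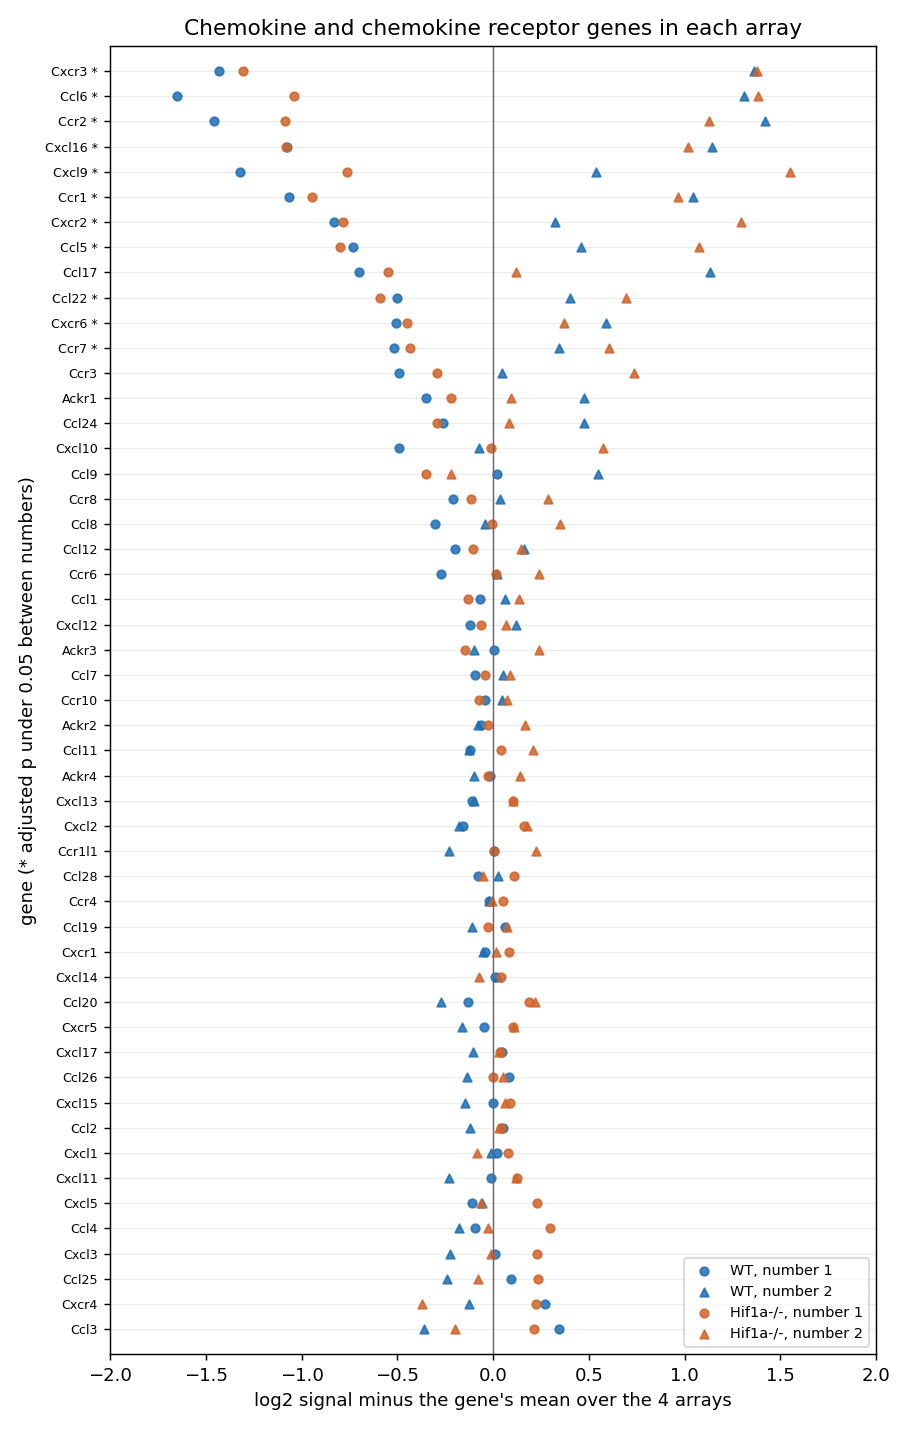
Each row is one of the 51 genes and each symbol one array, plotted as log2 signal minus the gene's mean over the 4 arrays; colour gives the genotype, circles number 1 and triangles number 2, and asterisks the 11 genes with an adjusted p under 0.05 between numbers. In the upper rows both triangles lie right of both circles, while in the 2 lowest rows, Cxcr4 and Ccl3, they lie left.

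The number of genes called depended on which array was present. Without WT array 1 there were 5 (Ccl6, Ccr1, Ccr2, Cxcl16 and Cxcr3), and without Hif1a-/- array 1 the same genes and Cxcl9, 6 in all. Those fits called 1.6% and 2.3% of all genes. Without WT array 2 there were 20 (18 higher, 2 lower), and without Hif1a-/- array 2 there were 19 (16 higher, 3 lower), each including all 11, beside 23.4% and 23.1% of all genes. With an array left out, the lone array of a number is assumed to vary like the pair of the other number. With variances of single genes, not moderated across genes, 0 of 51 passed, and 0 of all genes. At an unadjusted p under 0.05 that fit had 14 of the 51, beside 2681 of all 19938 genes. Fitting genotype as a covariate left the 11 as they were.

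The receptors with the largest split were Cxcr3, Ccr2 and Ccr1. Cxcr3, carried by effector T and NK cells and some dendritic cells, read 8.26 and 11.06 in WT arrays 1 and 2, against 8.39 and 11.08 in Hif1a-/- arrays 1 and 2. The genotypes were nearly equal within each number, and number 2 was higher by 2.74 (SE 0.11, adjusted p = 0.00172). Ccr2, the receptor with which monocytes leave the marrow, read 8.54 and 11.42 in WT and 8.92 and 11.13 in Hif1a-/-. It was higher in number 2 by 2.55 (SE 0.18, adjusted p = 0.00326). Ccr1, a receptor of monocytes and neutrophils for Ccl3 and Ccl5, read 5.97 and 8.08 in WT and 6.10 and 8.01 in Hif1a-/-, a difference of 2.01 (SE 0.12, adjusted p = 0.00252). These receptors were named for the largest differences among those that passed between numbers, so the separation of their arrays by number restates that choice.

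**Figure D3:**
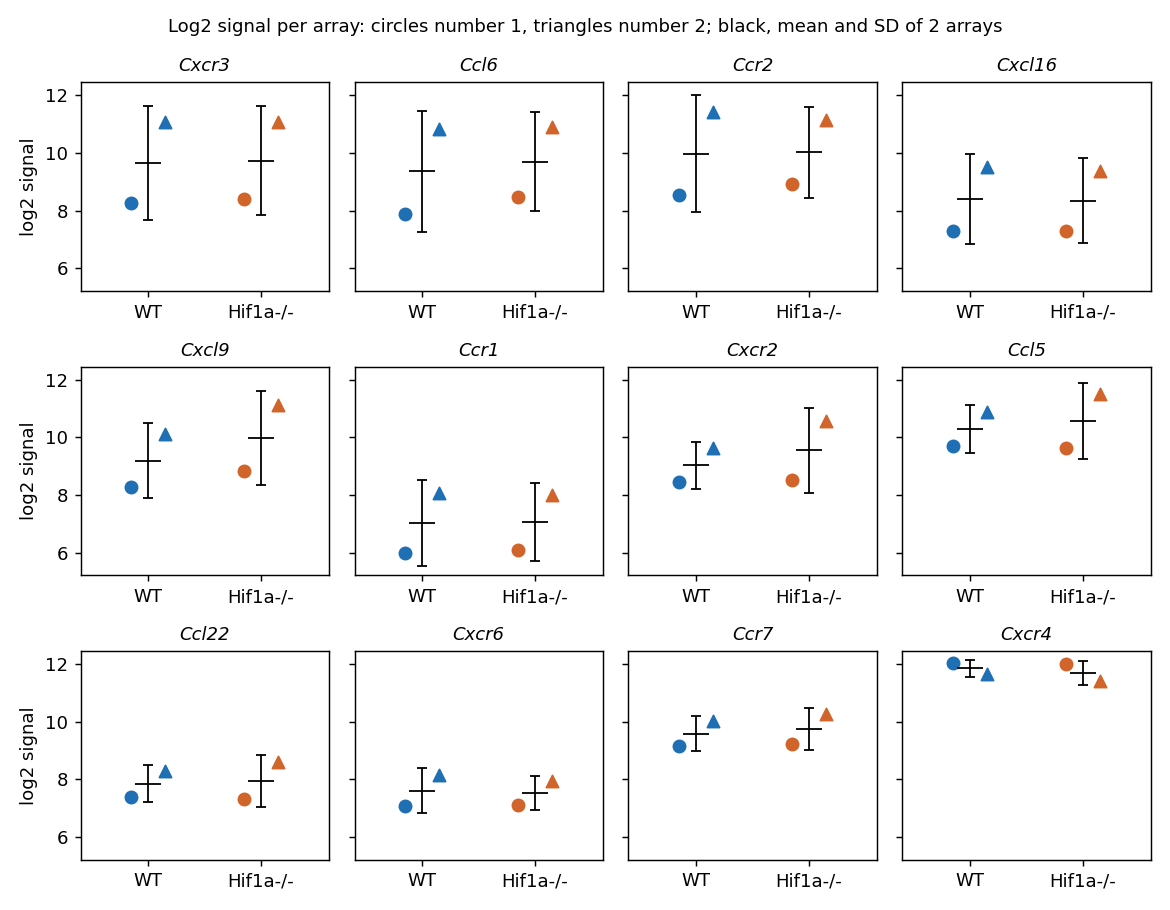
Panels show the log2 signal in each array for the 11 genes that passed between numbers and for Cxcr4, with WT in blue and Hif1a-/- in orange; circles are number 1, triangles number 2, and black bars the mean and SD of the 2 arrays of a genotype. In Cxcr3 the WT mean of 9.66 and the Hif1a-/- mean of 9.73 hide arrays near 8 and near 11, and only the Cxcr4 panel has its circles above its triangles.

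The other 3 receptors that passed did so by smaller amounts. Cxcr2, the neutrophil receptor for Cxcl1, Cxcl2 and their relatives, read 8.46 and 9.61 in WT arrays 1 and 2, against 8.51 and 10.58 in Hif1a-/- arrays 1 and 2. The number 2 arrays were themselves 0.97 apart, and the difference was 1.61 (SE 0.31, adjusted p = 0.0379). Ccr7, which guides dendritic cells and lymphocytes to lymph nodes, read 9.15 and 10.01 in WT and 9.23 and 10.27 in Hif1a-/- (0.95, SE 0.13, adjusted p = 0.0158). Cxcr6, the receptor of Cxcl16, read 7.06 and 8.16 in WT and 7.12 and 7.94 in Hif1a-/- (0.96, SE 0.13, adjusted p = 0.0134). All 3 lost the call without WT array 1 or without Hif1a-/- array 1. Ccr3, the eotaxin receptor of eosinophils, was at 0.54 in WT and 1.03 in Hif1a-/-, number 2 minus number 1, and did not pass (0.78, SE 0.24, adjusted p = 0.132).

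Apart from Ackr1, the other receptors differed little by number. Ccr6 differed by 0.26 and Ccr8 by 0.32, with no overlap between numbers, while Ccr4 (−0.03), Ccr1l1 (−0.01), Ccr10 (0.12), Cxcr1 (−0.04) and Cxcr5 (−0.06) lay within 0.15 of 0. The 4 atypical receptors ran from 0.04 (Ackr4) to 0.57 (Ackr1). Ackr1, which binds many CC and CXC ligands and is known from red cells and venules, read 7.15 and 7.98 in WT arrays 1 and 2, against 7.29 and 7.60 in Hif1a-/- arrays 1 and 2, and did not pass (adjusted p = 0.111). Cxcr2 and Cxcr1 bind overlapping ligands and are adjacent genes, yet only Cxcr2 was called. The difference between the 2 genes was not tested.

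Ligands made by myeloid and dendritic cells were among those higher in number 2. Ccl6, a CC chemokine of myeloid cells, read 7.88 and 10.84 in WT arrays 1 and 2, against 8.49 and 10.92 in Hif1a-/- arrays 1 and 2, a difference of 2.69 (SE 0.21, adjusted p = 0.00398). Cxcl16, a membrane-bound ligand of Cxcr6, read 7.30 and 9.52 in WT and 7.30 and 9.40 in Hif1a-/-, a difference of 2.16 (SE 0.11, adjusted p = 0.00222). Both number 1 arrays thus read the same to 2 decimals. Cxcl9, an interferon-gamma-induced ligand of Cxcr3, read 8.26 and 10.12 in WT and 8.82 and 11.13 in Hif1a-/-, a difference of 2.08 (SE 0.36, adjusted p = 0.0283). Ccl5, made by T and NK cells and others, read 9.69 and 10.88 in WT and 9.62 and 11.49 in Hif1a-/-, a difference of 1.53 (SE 0.21, adjusted p = 0.0151). Both Cxcl9 and Ccl5 were highest in Hif1a-/- array 2. Ccl22, a dendritic cell product that binds Ccr4, read 7.39 and 8.29 in WT and 7.30 and 8.59 in Hif1a-/- (1.09, SE 0.14, adjusted p = 0.0122). Ccl17, which binds Ccr4 too, had a wider spread: 8.15 and 9.98 in WT against 8.30 and 8.97 in Hif1a-/-. It was higher in number 2 by 1.84 in WT and 0.67 in Hif1a-/- and did not pass (adjusted p = 0.0877).

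Promoter windows of 3 genes with a large split are printed for comparison with that of Cxcr4: 250 bases before the start in RefSeq GRCm38.p6, for Cxcr3 (chrX:101734148-101734397, minus strand), Ccr2 (chr9:124101933-124102182, plus strand) and Ccl6 (chr11:83593088-83593337, minus strand). Capitals again mark a hypoxia core or a kB site on either strand.
Cxcr3: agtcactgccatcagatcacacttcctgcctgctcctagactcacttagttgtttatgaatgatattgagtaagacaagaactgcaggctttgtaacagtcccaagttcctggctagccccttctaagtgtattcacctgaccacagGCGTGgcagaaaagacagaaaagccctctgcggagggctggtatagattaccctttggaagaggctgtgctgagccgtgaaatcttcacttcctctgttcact
Ccr2: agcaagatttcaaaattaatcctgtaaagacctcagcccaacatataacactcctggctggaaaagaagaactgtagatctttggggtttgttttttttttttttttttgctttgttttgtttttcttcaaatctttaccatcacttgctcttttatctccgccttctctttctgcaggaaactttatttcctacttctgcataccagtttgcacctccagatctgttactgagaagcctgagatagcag
Ccl6: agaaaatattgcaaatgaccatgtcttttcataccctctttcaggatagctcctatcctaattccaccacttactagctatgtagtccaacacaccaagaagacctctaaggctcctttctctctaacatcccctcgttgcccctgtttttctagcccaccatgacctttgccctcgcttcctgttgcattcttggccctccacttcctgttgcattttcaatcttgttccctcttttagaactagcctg
Only Cxcr3 of these held a match, a core 103 to 99 bases before the start. Of the 11 genes higher in number 2, 8 had a window; 2 of the 8 (25.0%) held a core and 1 (12.5%) a kB site. Among windows of the other chemokine genes 16 of 31 (51.6%) held a core and 10 of 31 (32.3%) a kB site. These shares describe the letters in the windows and were not tested.

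On the lower side in number 2, Ccl3 and Cxcr4 had the largest differences. Ccl3, or macrophage inflammatory protein 1 alpha, which is known to restrain stem cell cycling, read 10.89 and 10.18 in WT arrays 1 and 2, against 10.76 and 10.34 in Hif1a-/- arrays 1 and 2. Both number 1 arrays lay above both number 2 arrays, and the difference of −0.56 (SE 0.12) did not pass (adjusted p = 0.0591). Its adjusted p in limma was 0.104 under median centring, 0.110 under cyclic loess and 0.109 with genotype as a covariate. The Ccl3 difference was −0.48 without WT array 2 and −0.64 without Hif1a-/- array 2. It was −0.50 without WT array 1 and −0.63 without Hif1a-/- array 1. Between genotypes Ccl3 differed by 0.02 (SE 0.31). Ccl25 (−0.32), Cxcl3 (−0.24), Cxcl1 (−0.10), Ccl2 (−0.09) and Cxcl17 (−0.08) also had no overlap between numbers and did not pass. The Ccl25 difference was −0.40 without Hif1a-/- array 2 and −0.24 without WT array 2.

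**Figure D4:**
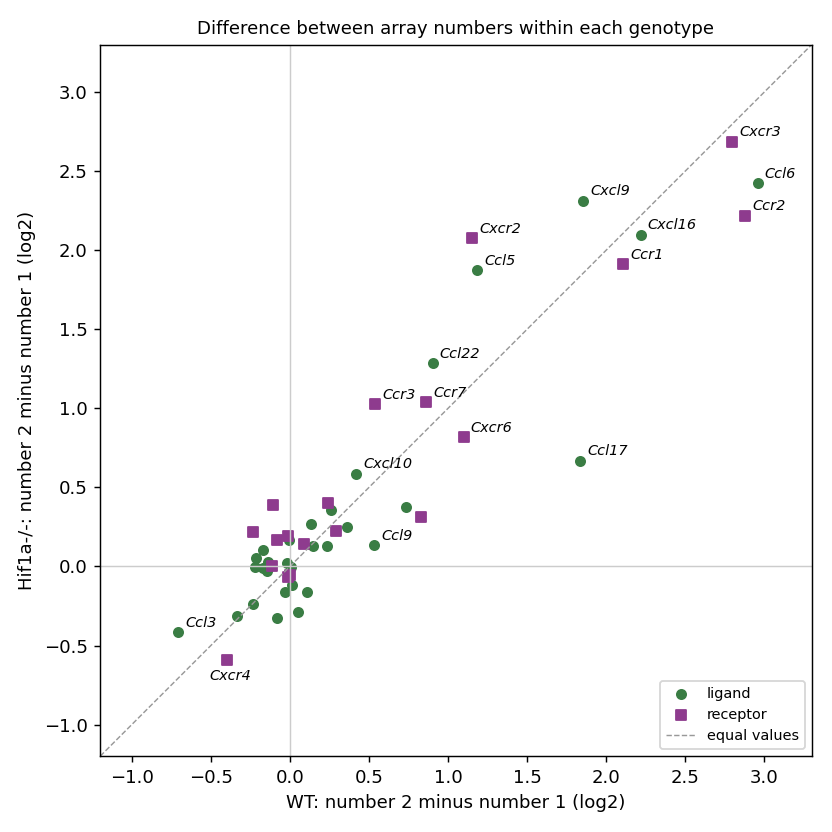
Each point is one gene (circles ligands, squares receptors), with its number 2 minus number 1 difference in log2 signal in WT (horizontal) and in Hif1a-/- (vertical); the dashed line marks equal values. The genes that passed lie far from 0 on both axes (0.86 to 2.96 in WT, 0.82 to 2.69 in Hif1a-/-), Ccl17 lies below the line (1.84 and 0.67), and Cxcr4 and Ccl3 lie below 0 on both.

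Neighbouring chemokine genes did not share one pattern. Ccl5, Ccl9, Ccl6, Ccl3 and Ccl4 follow each other on chromosome 11 with 0 other protein-coding genes between them in RefSeq (GRCm38.p6). Their number differences were 1.53, 0.33, 2.69, −0.56 and −0.20 in that order. The 6 monocyte and eosinophil attractants of another run on that chromosome, Ccl2, Ccl7, Ccl11, Ccl12, Ccl8 and Ccl1, all lay between −0.09 and 0.31. On chromosome 9, Ccr1, Ccr1l1, Ccr3 and Ccr2 are adjacent, with differences of 2.01, −0.01, 0.78 and 2.55. The neutrophil attractants Cxcl1, Cxcl2, Cxcl3, Cxcl5 and Cxcl15 on chromosome 5 lay between −0.24 and 0.00, while Cxcl9 and Cxcl10 on the same chromosome were at 2.08 and 0.50. Adjacent members are similar in sequence, and signal from one could reach the probe set of another; this was not tested.

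Receptor and ligand did not always move together between numbers. Cxcr6 (0.96) and Cxcl16 (2.16) both passed, as did Cxcr3 (2.74) and Cxcl9 (2.08), whereas Cxcl10 (0.50, adjusted p = 0.394) and Cxcl11 (−0.11) did not. Ccr2 passed while its ligands Ccl2 (−0.09), Ccl7 (0.14) and Ccl12 (0.31) did not. Cxcr2 passed while the ligands Cxcl1 (−0.10), Cxcl2 (0.00) and Cxcl3 (−0.24) did not. Ccr7 passed, and its ligand Ccl19 differed by −0.03. Ccl22 passed, and its receptor Ccr4 differed by −0.03.

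Genes of the same pathway outside the symbol rule were taken as 3 lists. In a list of other chemokines, receptors and related proteins, 12 of 15 were measured (the missing 3, Ccrl1, Darc and Ccbp2, are older names of Ackr genes described above). Of the 12, 0 passed between genotypes (limma, 0 at an unadjusted p under 0.05), and 2 were higher in number 2, beside 3.81% of all genes. Xcr1, the receptor for Xcl1 on cross-presenting dendritic cells, read 7.84 and 12.15 in WT arrays 1 and 2, against 8.81 and 12.59 in Hif1a-/- arrays 1 and 2 (4.05, SE 0.33, adjusted p = 0.00428). Cd74, the invariant chain of MHC class II, differed by 2.10 (adjusted p = 0.00398). Xcl1 itself was at 0.87 and did not pass (adjusted p = 0.185). Between genotypes Gpr182 and Cmklr1 were at 0.25 (SE 0.15) and 0.21 (SE 0.16), and Mif and Pf4 at −0.38 (SE 0.33) and −0.54 (SE 0.52).

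Of 40 listed genes of signal transduction below the receptors, 37 were measured, and 0 passed between genotypes (0 at an unadjusted p under 0.05). In number 2, 1 was higher and 2 were lower, beside 3.81% and 2.93% of all genes. These were the kinase gene Jak2 (1.07), Elmo1 of the Dock2 complex that drives migration (−0.78) and the transcription factor gene Foxo3 (−0.70). The list had a median genotype difference of 0.01, with Prkcb at 0.68 (SE 0.48), Pik3cd at 0.24 (SE 0.19), Stat5b at −0.35 (SE 0.32) and Gnai1 at −0.16 (SE 0.15). Among receptor kinases, arrestins and RGS proteins, which end G protein signals, 14 of 16 were measured. Again 0 passed between genotypes (0 at an unadjusted p under 0.05), with Rgs13 at 0.13 (SE 0.11), Rgs16 at 0.16 (SE 0.15), Rgs19 at −0.13 (SE 0.12) and Rgs18 at −0.55 (SE 0.55). In number 2, Grk5 (0.87), Rgs2 (0.81) and Rgs3 (0.63) were higher, and Rgs1 (−0.82) was lower, beside 3.81% and 2.93% of all genes.

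Markers of other cell types moved with the array number beside these genes. Over all genes, 3.81% were called higher in number 2 and 2.93% lower, the shares beside which the counts below stand. In number 2, 11 of 15 neutrophil and granule genes were higher, with list means of 10.37 and 10.11 in the number 1 arrays (WT, Hif1a-/-) and 11.80 and 12.41 in the number 2 arrays. Of 17 monocyte, macrophage and dendritic cell genes 9 were higher, and Flt3, which is also on the stem and progenitor list, was lower; the means were 8.80 and 8.93 against 9.77 and 10.08. Clec9a of cross-presenting dendritic cells read 7.53 and 8.20 in number 1 and 11.48 and 12.23 in number 2. Of 13 mast cell, basophil and eosinophil genes 7 were higher (8.84 and 8.97 against 10.30 and 10.06), and of 15 T and NK genes 3 were (7.88 and 8.00 against 8.45 and 9.03), among them Gzmb at 2.89. Of 12 stem and progenitor genes 6 were lower in number 2 (10.84 and 10.69 against 9.90 and 9.41), including Kit (−1.06), Hlf (−2.95) and Meis1 (−2.28). Of 13 B-cell genes 0 passed in either direction, of 7 erythroid and megakaryocyte genes 1 was higher, and of 15 stroma and endothelium genes 1 was higher and 4 were lower. No marker can be at 0 on this scale, and the part of these cell types in the chemokine differences was not tested.

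**Figure D5:**
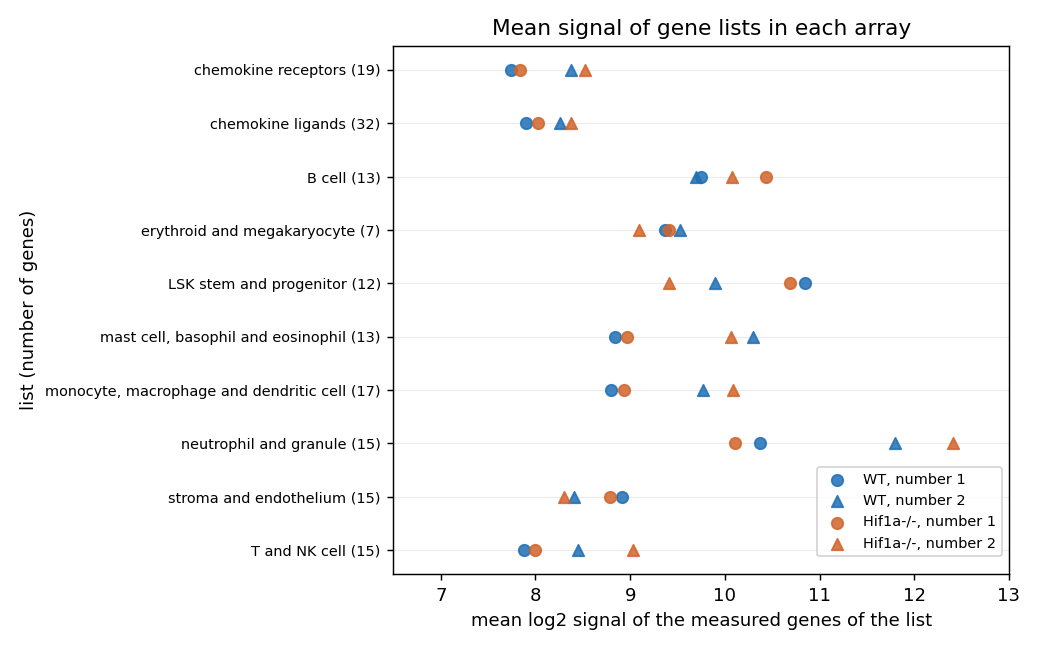
Each row is a list, with the number of genes measured, and each symbol the mean log2 signal of that list in one array; colour gives the genotype, circles number 1 and triangles number 2, and positions compare only within a row. The receptor row (7.75 and 7.83 in number 1, 8.37 and 8.52 in number 2) shifts right in the mean. So does the ligand row (7.90 and 8.02, then 8.25 and 8.37), although only 17 of 32 ligands were higher in number 2. The ligands' median difference was 0.0016, against 2.21 for the neutrophil row, which also shifts right. The stem and progenitor row shifts left.

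For the same 11 genes, the genotype fit without a block for the number had wide intervals, because it counts the number difference as spread. Their genotype differences ran from −0.08 to 0.79, with SEs between 0.49 and 1.38, against a median SE of 0.14 for the other 40 genes. The 11 were chosen for a large number difference, so their larger SEs follow from that choice. With the replicate number as a block, 0 of 51 genes passed between genotypes. In the fit without a block, the 95% interval of the genotype difference was −3.76 to 3.90 for Cxcr3 and −3.55 to 3.63 for Ccr2. Within the numbers, Cxcr3 differed between genotypes by 0.13 and 0.01 and Ccr2 by 0.37 and −0.29, far less than either differed between numbers.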

How the data were processed

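The deposited values are log2 signals per probe set, which the authors computed by RMA. The submitters' processing notes name Affymetrix Expression Console 1.1. The log base was read from their range (3.08 to 14.88). RMA sets the arrays' probe signals to a common distribution, so a change shared by all genes is removed. The table held 35556 probe sets, 21789 of them with exactly 1 symbol; 7 probe sets with chemokine symbols carried several and were not used. Where a gene had several probe sets, the brightest on average across the 4 arrays stood for it. No dim gene was left out. The number of arrays, 2 per group, limits the precision (median SE 0.15 between genotypes and 0.13 between numbers).

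Using limma 3.58.1 under R 4.3.3, both fits (lmFit, then eBayes) covered all 19938 genes without covariates: Hif1a-/- against WT, and number 2 against number 1. The p-values, which count both directions, received the Benjamini-Hochberg adjustment across all genes, and 0.05 was the threshold. Steps were tested on simulated data. Gene lists are described by counts, medians and their mean signal in each array. The alternatives tried were a block for the replicate number, genotype as a covariate, each array left out, 3 other normalizations, the dimmest 40% of genes left out, averaged probe sets, and 2 other variance estimates. Named were Cxcr4, Cxcl12 and Ackr3, then per direction up to 6 genes (genotype) or 8 (number) with the largest difference among those that passed or, where fewer passed, among those with no overlap, then ligands and receptors of these and the genes at the ends of a range. From the lists, up to 2 per direction with the smallest genotype p were named. Other list genes with values, and those passing between numbers, were chosen after their values were seen. The members and lists were chosen with earlier results of these data known. Figures were drawn with matplotlib 3.10.9.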

Additional observations from a re-analysis of the deposited data

How the results depend on the processing

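Between genotypes, no chemokine gene tested passed in limma under any of the 12 alternatives. All 51 were tested, except that 20 were where the dimmest genes were left out. At an unadjusted p under 0.05 there were 2 as reported, beside 145 of all genes. With all arrays kept, the alternatives had 0 to 7, beside 39 to 616 of all genes tested. Same-numbered arrays deviated together from their genotype means (correlation 0.67 across all genes), but the labels do not say that a number marks a shared batch. With the replicate number as a block, 0 of 51 passed between genotypes (7 at an unadjusted p under 0.05 in limma, beside 478 of all 19938 genes). Between numbers the 11 calls became 5 to 20 with an array left out (1.6% to 23.4% of all genes, from 6.74%), and 0 with unmoderated variances. They stayed within 1.5 times (8 to 12) under the other 7 alternatives, though these counts are not all alike. With the dimmest genes left out, 8 of the 20 genes tested were called. The 12 under quantile normalization and under cyclic loess were 11 higher and 1 lower, Cxcr4. Signs turned for Cxcr4 between genotypes without WT array 1 (0.05) and without Hif1a-/- array 2 (0.15), with a range of −0.44 to 0.15 over the arrays left out. Cxcl12 between genotypes turned under quantile normalization (−0.11), median centring (−0.0858), cyclic loess (−0.0862), without WT array 1 (−0.12) and without Hif1a-/- array 2 (−0.06), with a range of −0.12 to 0.12; its value as reported is 0.00, and centring shifts every gene alike. Ackr3 turned between genotypes under quantile normalization (−0.0191) and without Hif1a-/- array 2 (−0.10, range −0.10 to 0.29), and between numbers without Hif1a-/- array 2 (−0.029, range −0.03 to 0.31). The cause of these changes was not tested. Leaving out the dimmest 40% of genes removed 31 of the 51.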

Other observations

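Of the 51 genes, 2 had several probe sets with that symbol alone. Ccl19, a ligand of Ccr7, had 5, whose number differences ran from −0.12 to −0.03 and whose genotype differences ran from 0.02 to 0.05. Among the 5, 2 held the same values in every array (8.30 and 8.06 in WT, 8.22 and 8.25 in Hif1a-/-). The 5 are therefore not all separate readings. Ccl25, a ligand of lymphocytes homing to thymus and gut, had 2 that disagreed between numbers. The brighter one, used above, read 8.74 and 8.41 in WT arrays 1 and 2, against 8.88 and 8.57 in Hif1a-/- arrays 1 and 2. The dimmer one read 7.42 and 7.48 in WT and 7.52 and 7.55 in Hif1a-/-, a number difference of 0.04 against −0.32.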
